A study of Mus musculus with 31 samples.

Results

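The NF-kB subunits and inhibitors were followed in immune cells of irradiated mouse mammary tumours as 10 genes chosen by symbol, out of 38406 genes counted. They are the subunit genes Rela, Relb, Rel, Nfkb1 and Nfkb2 and the inhibitor and modulator genes Nfkbia, Nfkbie, Nfkbiz, Tnfaip3 and Bcl3. All 10 were found in each of the 31 libraries, and all 10 passed the filter on low counts. The libraries are bulk RNA-seq of CD45.2+ cells, that is of leukocytes, sorted from AT3-OVA tumours. The tumours grew from AT3-OVA, a line of murine triple-negative breast cancer that expresses ovalbumin as a model antigen, in the mammary fat pad of wild-type female C57BL/6 mice, whose age the labels do not give. Tumours received local radiotherapy under anaesthesia as 3 fractions of 4 Gy (3x4Gy, 6 libraries, day 5 after treatment) with the mock schedule 3x0Gy (anaesthesia alone, 4 libraries). Others received a single dose of 20 Gy (1x20Gy, 6 libraries at day 5 and 7 at day 13) with the mock 1x0Gy (4 libraries on each day). Every group carried the same tumour line, so no group is free of tumour, and the labels do not say whether animals were pooled.

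NF-kB is a family of transcription factors that act as dimers. At rest, inhibitors of the IkB kind hold the dimers in the cytoplasm; in the canonical pathway, signals from receptors for tumour necrosis factor, interleukin-1 and microbial products lead an IkB kinase to mark the inhibitor for destruction, and dimers of RelA, c-Rel and p50 enter the nucleus. In the non-canonical pathway, receptors such as CD40 and the lymphotoxin beta receptor lead to the processing of the Nfkb2 product p100 to p52, the partner of RelB. Many inhibitor and subunit genes are themselves known NF-kB targets, and in tumour leukocytes the family is best known for control of cytokine, chemokine and survival genes of myeloid cells and lymphocytes.

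The libraries held between 2641229 and 7541144 gene counts, and the members between 39 and 19890 counts per library, so none of their values rests on a handful of reads. Exons of Nfkb2 and Bcl3 overlap exons of genes on the opposite strand (Psd and AC114539.1 for Nfkb2, Gm16175 for Bcl3), and since no strand setting is given, reads from such stretches cannot be told apart. Labelled as CD45.2+ cells, all 31 libraries had counts of the 4 leukocyte genes listed as a check, Ptprc (which encodes CD45), Cd53, Laptm5 and Coro1a. Their summed level was 2755 to 3841 CPM (TMM-scaled counts relative to library size, scaled within each day) after 3x4Gy against 1666 to 2503 CPM after 3x0Gy, with no overlap. It was 2795 to 3711 CPM after 1x20Gy against 2534 to 2835 CPM after 1x0Gy at day 5, and 2705 to 3388 against 2485 to 3062 CPM at day 13. Of the 4 genes only Ptprc was called, and only for 3x4Gy. The 9 fibroblast and matrix markers, none of which was at 0 throughout, summed to 16.2 to 49.4 CPM after 3x4Gy against 92.3 to 209.5 CPM after 3x0Gy. They summed to 12.9 to 67.8 CPM after 1x20Gy against 55.9 to 198.9 CPM after 1x0Gy at day 5, and to 14.2 to 33.2 against 40.9 to 79.3 CPM at day 13. The part of these shifts in the results was not tested. Covariate and scaling alternatives were run, but they rest on values such as these, which themselves shifted between irradiated and mock groups. Calls kept or lost under them cannot tell composition from treatment. A single library, 3x0Gy library 2, stood apart: 5.66% of its uniquely placed reads lay outside annotated genes, and the share in all other libraries lay above 15%, up to 32.0%. In a bulk sample, fewer cells of a type and less RNA per cell cannot be told apart.

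Promoters are shown because several members are textbook NF-kB targets. RefSeq windows of GRCm38.p6, reaching from 250 bases before to 50 bases after a start site, were given for 7 of the 10 members (Rela, Rel, Nfkb2, Nfkbia, Nfkbie, Tnfaip3 and Bcl3). The strict kappaB consensus was GGGRNWYYCC, where R is A or G, W is A or T, Y is C or T and N is any base. Searched on both strands, it occurred in a window of 6 of these 7 genes, all but Rela, and in 4.51% of all 32851 windows, or 5.14% of 27025 genes. A looser pattern, GGG and CC with any 5 bases between them, also on both strands, occurred in all 7, but also in 50.8% of windows and 53.5% of genes, so that it separates little. Windows with a strict match are shown for the members that were called in at least 1 comparison, on the strand of the gene, with matches of the strict consensus in capitals; overlapping matches run together.
Another Nfkb2 window overlaps the second and repeats its match, and is not printed.
Rel, chr11:23770920-23771219, minus strand: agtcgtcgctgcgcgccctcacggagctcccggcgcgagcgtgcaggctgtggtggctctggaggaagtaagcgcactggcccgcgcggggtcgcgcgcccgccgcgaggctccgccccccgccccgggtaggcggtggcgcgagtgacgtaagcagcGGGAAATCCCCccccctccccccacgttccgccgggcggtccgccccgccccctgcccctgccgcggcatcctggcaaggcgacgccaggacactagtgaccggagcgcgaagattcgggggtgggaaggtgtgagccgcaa
Nfkb2 first start, chr19:46304487-46304786, plus strand: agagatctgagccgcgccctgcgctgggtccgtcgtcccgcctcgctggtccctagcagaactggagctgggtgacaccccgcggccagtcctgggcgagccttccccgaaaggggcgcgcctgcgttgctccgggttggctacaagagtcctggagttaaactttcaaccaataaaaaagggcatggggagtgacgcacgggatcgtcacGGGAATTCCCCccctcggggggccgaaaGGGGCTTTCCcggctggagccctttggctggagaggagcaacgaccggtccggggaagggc
Nfkb2 second start, chr19:46305445-46305744, plus strand: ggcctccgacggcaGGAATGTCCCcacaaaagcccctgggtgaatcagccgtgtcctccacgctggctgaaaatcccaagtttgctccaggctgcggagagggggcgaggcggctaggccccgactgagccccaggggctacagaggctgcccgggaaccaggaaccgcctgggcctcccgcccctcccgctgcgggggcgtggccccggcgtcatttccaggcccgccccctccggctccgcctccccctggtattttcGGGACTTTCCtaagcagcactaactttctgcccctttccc
Nfkbie, chr17:45555450-45555749, plus strand: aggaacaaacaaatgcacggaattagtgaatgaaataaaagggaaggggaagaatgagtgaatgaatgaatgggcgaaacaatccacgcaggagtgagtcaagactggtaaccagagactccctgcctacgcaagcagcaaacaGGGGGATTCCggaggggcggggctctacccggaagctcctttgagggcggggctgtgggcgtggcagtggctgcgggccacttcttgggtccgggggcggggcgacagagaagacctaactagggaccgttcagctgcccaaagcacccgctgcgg
Bcl3, chr7:19822706-19823005, minus strand: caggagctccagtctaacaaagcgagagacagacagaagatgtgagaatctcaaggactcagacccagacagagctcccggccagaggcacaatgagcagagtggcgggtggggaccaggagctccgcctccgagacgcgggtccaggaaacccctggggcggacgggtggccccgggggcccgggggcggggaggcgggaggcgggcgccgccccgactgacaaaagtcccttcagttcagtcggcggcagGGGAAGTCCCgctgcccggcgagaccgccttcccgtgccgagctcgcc
The match in the Rel window, GGGAAATCCC, began 92 bases before the start site. Nfkb2 had GGGAATTCCC at 39 and GGGGCTTTCC at 11 bases before its first start, and GGAATGTCCC at 236 bases before and GGGACTTTCC at 11 bases after the second. The Nfkbie match GGGGGATTCC began 106 bases before the start, and the Bcl3 match GGGAAGTCCC, which matches as its reverse complement, covered bases 3 to 12 of the transcript. Nfkbia and Tnfaip3, which were not called in any comparison, also had matches, GGAAATTCCC at 29 bases before the start of Nfkbia, and GGGACACCCC at 125 and GGAAATCCCC at 12 bases before that of Tnfaip3. Like that of Bcl3, the matches GGAATGTCCC of Nfkb2, GGAAATTCCC of Nfkbia and GGAAATCCCC of Tnfaip3 match only as the reverse complement. A match describes these letters only, and whether a factor binds there was not measured.

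Levels were set side by side per kilobase of exon, since the genes differ in length. Length was the union of all annotated exons of a gene, from 1610 bases for Nfkbia to 12061 for Nfkb1, and a transcript can be shorter. Nfkbia, which encodes IkB-alpha, the main inhibitor of canonical dimers and one of their fastest targets, stood far above the rest in every group, with a mean CPM per kilobase between 19.5 and 25.0 times that of the next gene. That level was 1860 ± 281 after 3x4Gy (SD, n = 6) against 1309 ± 288 after 3x0Gy (n = 4), and 1683 ± 318 after 1x20Gy (n = 6) against 1167 ± 92.3 after 1x0Gy (n = 4) at day 5. Next came Nfkbiz at day 5 and Rela at day 13, and Nfkb2 and Nfkb1 stood 9th and 10th of the 10 genes in all 6 groups. Nfkb1 had 8.47 ± 1.10 CPM per kilobase after 3x4Gy (n = 6) against 5.86 ± 0.98 after 3x0Gy (n = 4). Between neighbours in this order the libraries' ranges overlapped for 5 to 7 of the 9 pairs, depending on the group, so most of the middle order is within the spread, whereas Nfkbia never overlapped its neighbour. The order depends on the lengths used. In CPM without length, Nfkbia stood 1st, Nfkbiz 2nd and Nfkb2 10th in all 6 groups, but Nfkb1 stood 6th to 9th. After 3x4Gy the mean was then 2995 CPM for Nfkbia and 407.2 CPM for Nfkbiz. Days were not compared in level, because the sample codes differ between day 5 and day 13.

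**Figure D1:**
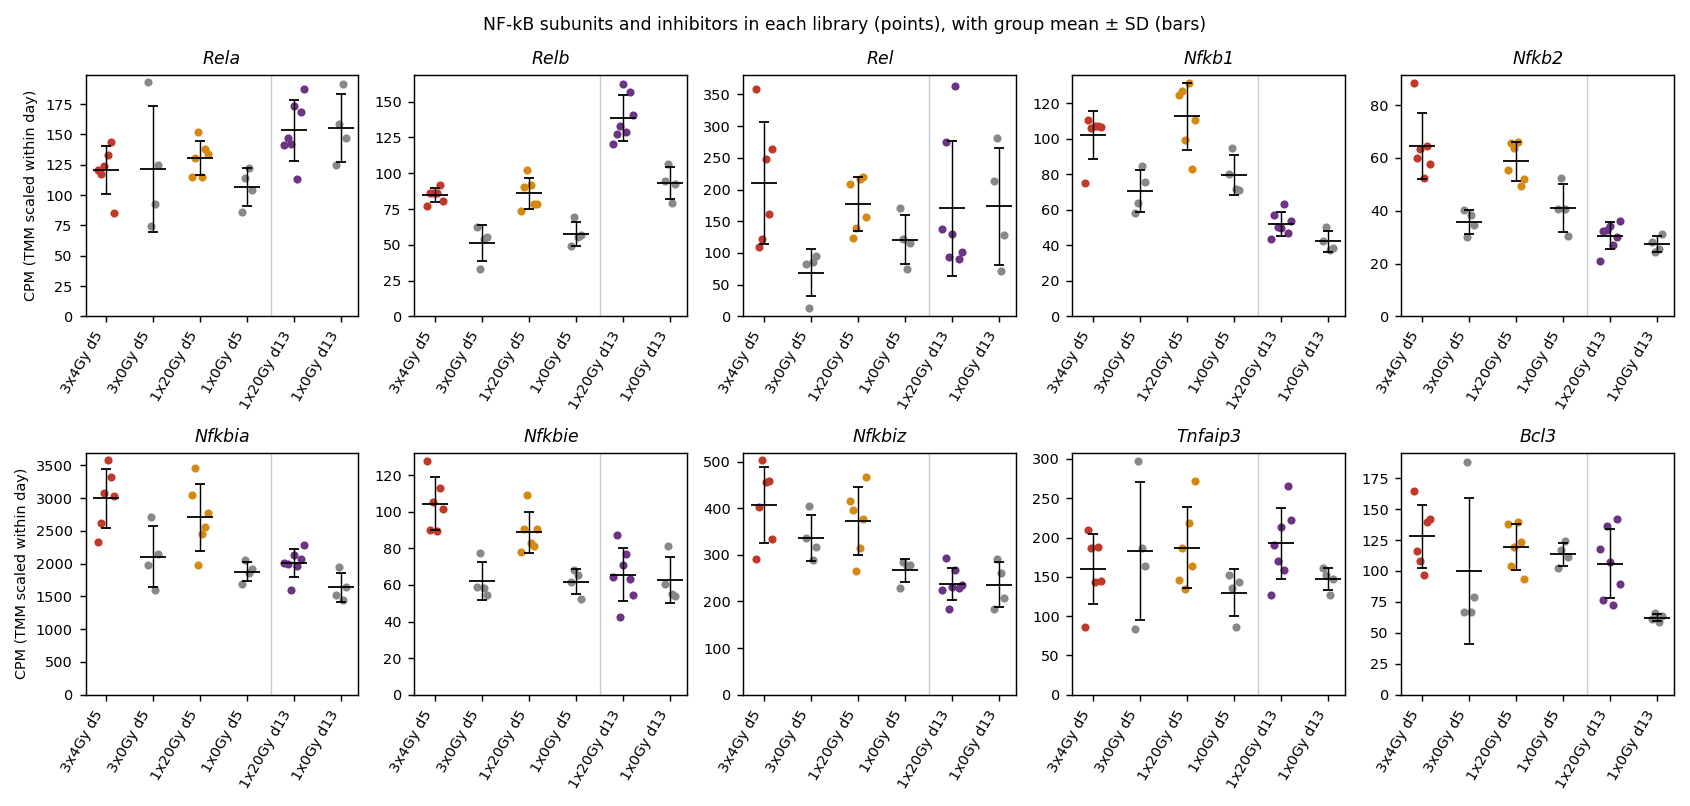
Each panel plots one gene in all 31 libraries (points) by group on the horizontal axis, in CPM scaled within each day on the vertical axis, with the group mean ± SD as bars; the grey line parts day 5 from day 13. For Relb each irradiated group lies wholly above its mock, while for Rel the 3x0Gy library at 13.29 CPM lies far below all others.

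At day 5 after 3x4Gy, 4 of the 5 subunit genes and 1 of the 5 inhibitor and modulator genes were called higher than after 3x0Gy (Relb, Rel, Nfkb1, Nfkb2 and Nfkbie). In all, 5 of 10 members were called higher at an adjusted p below 0.05 (edgeR quasi-likelihood test, Benjamini-Hochberg adjusted over 12021 genes), where 5.2% of the genes tested were called higher and 7.09% lower. Subunit genes were not tested against the others as a class. The division rests on the threshold, since Nfkbia had a log2 fold change of 0.51 (adjusted p = 0.053) beside 0.53 (adjusted p = 0.026) for Nfkb1. The median log2 fold change was 0.52 over the members and -0.004 over all genes. In 4 members (Relb, Rel, Nfkb2 and Nfkbie) every 3x4Gy library lay above every 3x0Gy library, which held for 3.91% of all genes.

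Relb, the subunit that works with p52 in the non-canonical pathway (chr7:19606217-19629438, minus strand, GRCm38), had 77.5 CPM in the lowest, 86.1 in the median and 91.7 in the highest 3x4Gy library, against 62.4, 33.4, 54.1 and 55.2 CPM in the 3x0Gy libraries. The groups did not overlap, and the 3x4Gy libraries were the more even. Its log2 fold change was 0.72 (SE 0.15, adjusted p = 0.0026). Nfkb2, which encodes p100 and p52 (chr19:46304320-46312385, plus strand), ranged from 52.3 over a median of 61.8 to 88.2 CPM after 3x4Gy, against 40.4, 29.98, 38.4 and 34.6 CPM after 3x0Gy. Again no 3x0Gy library reached the lowest 3x4Gy library, and the log2 fold change was 0.84 (SE 0.16, adjusted p = 0.0017). The genes for RelB and for p100 thus were both called, at the level of RNA. Processing of p100 to p52 was not measured.

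Rel, which encodes c-Rel, a subunit best known from lymphocytes and myeloid cells (chr11:23736847-23770970, minus strand), had the largest change of the 10 and the widest spread. It had 109.9 CPM in the lowest, 204.5 in the median and 358.5 in the highest 3x4Gy library, against 81.9, 13.3, 85.1 and 95.2 CPM after 3x0Gy. The groups did not overlap, and the low value is that of 3x0Gy library 2. The log2 fold change was 1.60 (SE 0.40, adjusted p = 0.010), and 1.27 (SE 0.33, adjusted p = 0.016) without that library. It was 0.97 (adjusted p = 0.14) with the share of reads outside genes as a covariate and 1.54 (adjusted p = 0.12) with the stromal and epithelial markers as one. A fit of these 2 groups alone gave 1.59 (adjusted p = 0.068).

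Nfkb1, which encodes p105 and p50 (chr3:135584655-135691547, minus strand), had 75.2 CPM in the lowest, 106.8 in the median and 110.5 in the highest 3x4Gy library, against 58.2, 64.1, 84.6 and 76.0 CPM after 3x0Gy. All irradiated libraries but 1 lay within 106.4 to 110.5 CPM and above all mocks, and library 1 lay among the mocks. The log2 fold change of 0.53 (SE 0.15, adjusted p = 0.026) was past the threshold in 7 of 10 fits that left out 1 library, and not without 3x0Gy library 1 (adjusted p = 0.087), 3x0Gy library 2 (0.073) or 3x4Gy library 5 (0.052). It was 0.25 (adjusted p = 0.44) with the stromal and epithelial covariate, 0.39 (adjusted p = 0.23) with that of reads outside genes, 0.45 (adjusted p = 0.052) with upper quartile scaling and 0.51 (adjusted p = 0.086) in a fit of the 2 groups alone. Rela, the subunit of the classic p65 and p50 dimer, did not pass the test: it had 85.1, 122.2 and 143.7 CPM (lowest, median, highest) after 3x4Gy, against 193.1, 74.6, 92.7 and 125.1 CPM after 3x0Gy. The mocks spanned the whole irradiated range, and the log2 fold change was -0.01 (95% interval -0.42 to 0.40).

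Among the inhibitors, Nfkbie, which encodes IkB-epsilon (chr17:45555703-45563169, plus strand), was called: 89.2, 103.5 and 127.9 CPM (lowest, median, highest) after 3x4Gy, against 58.9, 77.7, 58.1 and 54.7 CPM after 3x0Gy. No libraries overlapped, and the log2 fold change was 0.75 (SE 0.14, adjusted p = 0.0011), the smallest adjusted p of the 10. With the stromal and epithelial covariate, Relb (0.79), Nfkb2 (0.94) and Nfkbie (0.83) were called, and likewise with that of reads outside genes (0.63, 0.80 and 0.98). Nfkbia had 2336, 3054 and 3581 CPM after 3x4Gy, against 1979, 2707, 1591 and 2152 CPM after 3x0Gy. Only 3x0Gy library 2 reached into the irradiated range; the log2 fold change of 0.51 (SE 0.17) missed the threshold at an adjusted p of 0.053 and passed it without that library (0.65, adjusted p = 0.012), in DESeq2 (adjusted p = 0.020) and in limma voom (adjusted p = 0.041).

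Bcl3, an atypical IkB protein that works in the nucleus with p50 and p52 (chr7:19808462-19822770, minus strand), had 96.9, 128.1 and 165.0 CPM after 3x4Gy, against 66.6, 188.1, 66.6 and 78.8 CPM after 3x0Gy. Here too 3x0Gy library 2 was the exception, above every irradiated library, while the other 3 mocks lay below all of them. The log2 fold change was 0.36 (adjusted p = 0.31) with that library and 0.85 (adjusted p = 0.0019) without it. Nfkbiz, which encodes the nuclear IkB-zeta, overlapped between groups, at 291.1, 429.2 and 502.8 CPM against 336.7, 403.7, 289.1 and 316.9 CPM (log2 fold change 0.28, adjusted p = 0.28). Tnfaip3, which encodes A20, a ubiquitin-editing brake on the pathway, also overlapped, at 86.2, 166.0 and 209.8 CPM against 83.7, 297.1, 187.2 and 163.2 CPM. Its log2 fold change was -0.19 (adjusted p = 0.68), and the sign turned to 0.13 without 3x0Gy library 2.

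The rise of these genes was relative to all RNA in the sorted cells. With libraries scaled to the 4 leukocyte genes, an alternative chosen after their levels were seen, the median of all genes moved by -0.59 on the log2 scale and all members moved with it. Rel was then the one member still higher (1.05), Relb, Nfkb2 and Nfkbie lay at 0.18, 0.26 and 0.11 and were not called, Nfkb1 turned to -0.05, and Rela (-0.56) and Tnfaip3 (-0.85) were called lower. Over all genes that scaling called 90 higher and 6187 lower, where TMM called 625 higher and 852 lower.

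**Figure D2:**
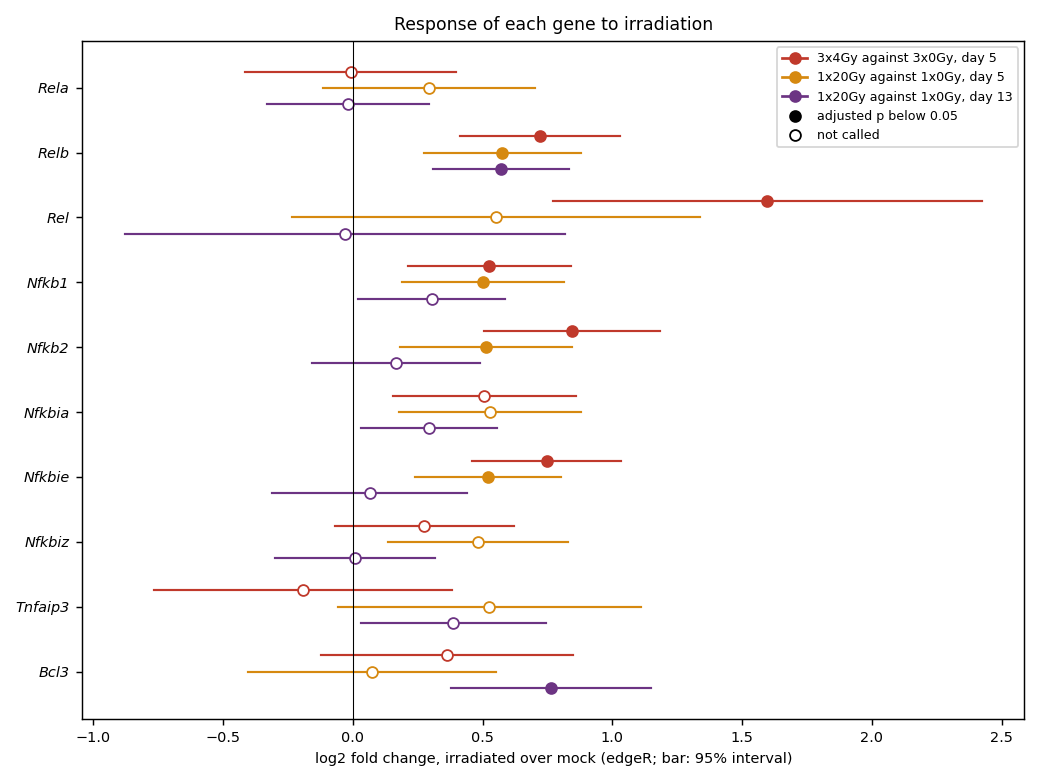
Log2 fold changes of the 10 genes (horizontal axis, irradiated over mock, with the 95% interval as a bar) for 3x4Gy and 1x20Gy at day 5 and 1x20Gy at day 13; filled points have an adjusted p below 0.05. Relb is filled in all 3 comparisons, and Nfkb1, Nfkb2 and Nfkbie in both at day 5, while under scaling to leukocyte genes Nfkb1 after 3x4Gy turned to -0.05.

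After 1x20Gy at day 5, Relb, Nfkb1, Nfkb2 and Nfkbie were higher than after 1x0Gy. That is 4 of 10 members called higher, where 3.67% of the 12021 genes were called higher and 4.88% lower. All 10 members had a positive log2 fold change, with a median of 0.52, against 0.02 over all genes, of which 53.0% were positive. Relb and Nfkbie had no overlap between groups, which held for 5.44% of all genes. These libraries share none with the 3x4Gy comparison, but both came from 1 fit with a common estimate of the spread.

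Relb had 73.6, 84.5 and 102.3 CPM (lowest, median, highest) after 1x20Gy, against 49.1, 69.2, 55.3 and 56.9 CPM after 1x0Gy. Every irradiated library was above every mock, and the log2 fold change was 0.58 (SE 0.15, adjusted p = 0.015). Nfkbie had 78.0, 86.8 and 108.9 CPM against 61.8, 67.9, 65.7 and 52.1 CPM, again apart; its log2 fold change was 0.52, with an SE of 0.14 (adjusted p = 0.018).

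Nfkb1 had 82.8, 117.7 and 131.3 CPM after 1x20Gy, against 80.1, 95.1, 71.7 and 71.4 CPM after 1x0Gy. One irradiated library lay among the mocks, and the log2 fold change was 0.50 (SE 0.15, adjusted p = 0.040). Nfkb2 had 49.3, 59.6 and 66.2 CPM against 40.8, 52.6, 40.8 and 30.3 CPM, with 1 mock inside the irradiated range, and its log2 fold change was 0.51, with an SE of 0.16 (adjusted p = 0.047). Nfkb1 passed in 2 of 10 fits that left out 1 library (without 1x20Gy library 5 or 1x0Gy library 2), with an adjusted p of up to 0.15 in the others. Nfkb2 passed in 1 (without 1x0Gy library 2), with an adjusted p of up to 0.20 in the others. Relb passed in 6, and not without 1x20Gy library 3 or 1x0Gy library 1, 3 or 4 (adjusted p between 0.052 and 0.062). Nfkbie passed in 7, and not without 1x20Gy library 3 or 6 or 1x0Gy library 4 (adjusted p between 0.051 and 0.095).

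Of the genes not called, Nfkbia had 1977, 2659 and 3462 CPM after 1x20Gy, against 1691, 2050, 1859 and 1916 CPM after 1x0Gy, which gave 0.53 on the log2 scale, SE 0.17 and adjusted p = 0.055. All but 1 of the irradiated libraries exceeded all mocks. Nfkbiz had 264.6, 386.9 and 467.5 CPM against 229.6, 284.1, 275.2 and 278.4 CPM (log2 fold change 0.48, adjusted p = 0.078), likewise with 1 irradiated library inside the mock range. Rel had 123.4, 183.1 and 220.1 CPM against 170.5, 121.6, 75.3 and 116.4 CPM, and the difference of 0.55 (95% interval -0.23 to 1.34) did not pass and turned to -0.17 with the share of reads outside genes as a covariate.

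Tnfaip3 had 134.0, 175.0 and 272.5 CPM after 1x20Gy, against 152.9, 135.8, 86.5 and 143.8 CPM after 1x0Gy (log2 fold change 0.53, adjusted p = 0.27). Rela had 114.5, 132.1 and 151.8 CPM against 86.0, 114.1, 122.5 and 103.8 CPM (0.29, adjusted p = 0.40). In Bcl3 the groups lay within each other, at 93.2, 121.1 and 139.3 CPM against 102.0, 116.6, 124.4 and 111.2 CPM (0.07, adjusted p = 0.90). Under scaling to the 4 leukocyte genes, which moved the median of all genes by -0.25, none of the 10 was called, the 4 called genes stood between 0.23 and 0.32, and Bcl3 turned to -0.21. None was called either with the stromal and epithelial covariate, and 1 (Nfkbie) with the covariate of reads outside genes.

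At day 13 after 1x20Gy, 2 members were called higher than after 1x0Gy, Relb and Bcl3, where 4.22% of the 11071 genes tested were called higher and 3.83% lower. Relb had 120.1, 132.7 and 162.5 CPM (lowest, median, highest) after 1x20Gy, against 94.7, 106.3, 79.2 and 92.6 CPM after 1x0Gy. Bcl3 had 72.3, 107.6 and 141.6 CPM against 61.3, 65.8, 59.0 and 63.5 CPM, so that the mocks lay within a narrow band and the irradiated libraries spread widely above it. In neither gene did the groups overlap, as for 3.31% of all genes, and the log2 fold changes were 0.57 (SE 0.12, adjusted p = 0.010) for Relb and 0.76 (SE 0.18, adjusted p = 0.016) for Bcl3. Without 1x0Gy library 3, Relb had 0.50 (adjusted p = 0.056) and Bcl3 0.73 (adjusted p = 0.069), and under scaling to the leukocyte genes the adjusted p was 0.057 for both. With the stromal and epithelial covariate Relb had 0.56 and Bcl3 0.89, and with that of reads outside genes 0.62 and 0.98, and both were called.

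Nfkbia, Tnfaip3 and Nfkb1 had an unadjusted p below 0.05 at day 13 and missed the adjusted threshold. Of all 11071 genes tested, 2583 had an unadjusted p below 0.05. Nfkbia had 1593, 2012 and 2286 CPM after 1x20Gy, against 1524, 1941, 1445 and 1640 CPM after 1x0Gy (log2 fold change 0.29, adjusted p = 0.16). Tnfaip3 had 127.4, 190.3 and 265.8 CPM against 161.5, 152.4, 127.5 and 147.8 CPM (0.39, adjusted p = 0.17). Nfkb1 had 43.6, 50.4 and 63.3 CPM against 42.6, 50.4, 37.2 and 38.8 CPM (0.30, adjusted p = 0.18). In each the ranges overlapped, and in Nfkbia and Tnfaip3 the irradiated median lay above all mocks.

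Nfkb2 and Nfkbie, called at day 5, were close between groups at day 13: Nfkb2 had 21.1, 32.5 and 36.3 CPM after 1x20Gy, against 28.2, 24.5, 25.5 and 31.2 CPM after 1x0Gy (log2 fold change 0.17, 95% interval -0.16 to 0.49). Nfkbie had 42.6, 64.4 and 87.2 CPM against 60.4, 81.4, 55.2 and 54.0 CPM (0.06, interval -0.31 to 0.44). Nfkbiz had 184.6, 231.3 and 293.4 CPM against 184.2, 290.4, 261.9 and 208.1 CPM (0.01, interval -0.30 to 0.32). Rela, at 113.1, 147.1 and 187.6 CPM against 124.4, 158.3, 191.5 and 146.7 CPM, differed by -0.02 (interval -0.33 to 0.29). Rel ran from 90.7 over 130.1 to 363.7 CPM against 214.2, 281.0, 72.1 and 127.9 CPM, and its interval of -0.88 to 0.82 left room for changes of either sign.

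The regimens were then set against each other at day 5. No member passed: the 3x4Gy response minus the 1x20Gy response was called for 0 of 10 members and 0 of 12021 genes by edgeR (0% of genes; 714 genes and 0 members at an unadjusted p below 0.05), for 1 gene by DESeq2 and 0 by limma voom. The largest differences were those of Rel, at 1.05 (SE 0.53, 95% interval -0.06 to 2.15, adjusted p = 0.80), and Tnfaip3, at -0.72 (SE 0.39, interval -1.53 to 0.10, adjusted p = 0.80). Those of Nfkb1 (0.03) and Nfkbia (-0.02) were the smallest, with intervals of -0.41 to 0.46 and -0.51 to 0.47, which still leave room for unequal responses. A direct comparison of 3x4Gy with 1x20Gy libraries, which reuses these libraries, called 0 of 10 members (0.025% of genes were called; 0 members by DESeq2 and voom), with log2 fold changes from -0.22 for Tnfaip3 to 0.24 for Rel.

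Between the mock schedules 3x0Gy and 1x0Gy, 0 of 10 members and 0 of 12021 genes were called by edgeR (0% of genes; 667 genes and 0 members at an unadjusted p below 0.05; 2 genes by DESeq2 and 0 by voom). The difference was largest in Rel, at -0.80 (SE 0.42, 95% interval -1.66 to 0.06, adjusted p = 0.84), lower in 3x0Gy, and in Nfkbiz every 3x0Gy library lay above every 1x0Gy library, as for 2.04% of all genes (log2 fold change 0.33, adjusted p = 0.84). For 1x20Gy, the day 13 response minus the day 5 response was called for 0 of 10 members, where 0.423% of 12061 genes were called. DESeq2 and voom called 0 of 10 as well, and 1 member, Bcl3, had an unadjusted p below 0.05 (difference 0.72, SE 0.31, adjusted p = 0.31). So had 1499 of the 12061 genes. Nfkbie (-0.44, interval -0.87 to 0.001) and Nfkbiz (-0.45, interval -0.91 to 0.004) had the most negative differences apart from Rel (-0.57, interval -1.74 to 0.61).

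**Figure D3:**
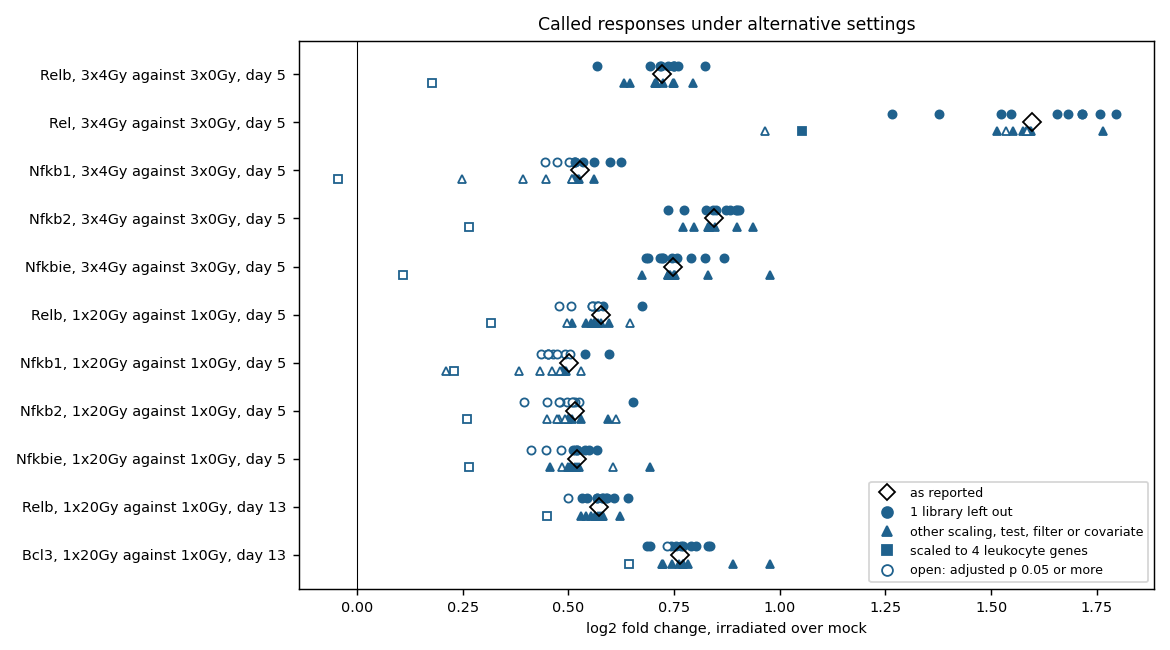
Log2 fold change (horizontal axis, irradiated over mock) of the 11 calls under each alternative: diamonds show the reported values, circles fits without 1 library, triangles other scalings, tests, filters or covariates, and squares scaling to 4 leukocyte genes; open symbols have an adjusted p of 0.05 or more. Relb, Rel, Nfkb2 and Nfkbie after 3x4Gy stay filled in all fits without 1 library, whereas squares lie left of the diamonds in every row and that of Nfkb1 after 3x4Gy lies below 0.

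Over the 31 libraries, members were compared by their deviations from the group mean in log2 CPM. Of the 45 pairs of members, 1 passed the adjusted threshold: Nfkbia and Nfkbiz, with a Pearson r of 0.69 (permutation p = 0.00021, adjusted p = 0.0095 over 45 pairs) and a Spearman rho of 0.59 (permutation p = 0.0023, adjusted p = 0.10). Without the 2 libraries farthest from the median of Nfkbia the r was 0.62, and within groups of 6 or more libraries it was 0.75 after 3x4Gy, 0.79 after 1x20Gy at day 5 and 0.46 at day 13. The rank correlation thus did not pass after adjustment. Rela and Relb had the second largest r, 0.61 (adjusted p = 0.20). The median r over all pairs was 0.01, and 24 of the 45 were positive.

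Rel was also set against the share of uniquely placed reads outside annotated genes, a property of the library. Its deviations followed that share, with a Pearson r of 0.70 (permutation p = 0.00061, adjusted p = 0.0061 over the 10 members) and a Spearman rho of 0.58 (permutation p = 0.0021, adjusted p = 0.021). Without the 2 libraries farthest from the median share the r was 0.58; within groups it was 0.09 after 3x4Gy, 0.87 after 1x20Gy at day 5 and 0.56 at day 13, so the relation was not seen in the 3x4Gy libraries. Over all libraries the other 9 members gave adjusted p-values between 0.21 and 0.98 for r. Within single groups some of them also had large values, none of which was tested. In the order 3x4Gy, 1x20Gy at day 5 and 1x20Gy at day 13, r was 0.51, -0.91 and -0.715 for Rela. It was -0.08, -0.90 and -0.05 for Nfkbie, 0.11, -0.58 and -0.67 for Relb, and -0.14, 0.10 and -0.73 for Tnfaip3. The genes whose deviations were most like those of Rel, among 9156 genes, were Erbb2ip (r = 0.97), mt-Rnr1, a mitochondrial ribosomal RNA (0.96), and Ranbp2, a nuclear pore protein (0.96). The share itself was 21.1% to 28.1% after 3x4Gy against 5.66% to 21.5% after 3x0Gy, and 17.6% to 28.8% after 1x20Gy against 15.9% to 18.4% after 1x0Gy at day 5.

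**Figure D4:**
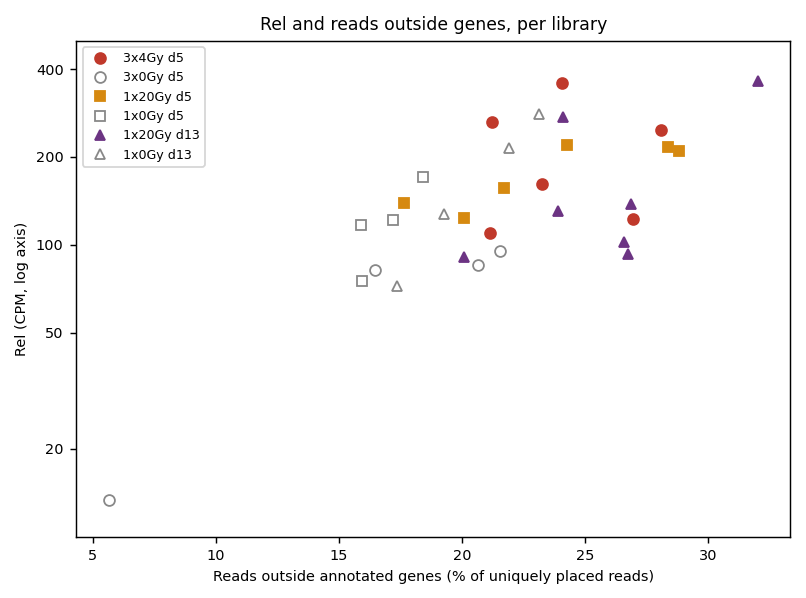
Rel in CPM (vertical axis, log scale) against the percentage of uniquely placed reads outside annotated genes (horizontal axis) in the 31 libraries, with irradiated groups filled and mocks open. The 3x0Gy library at 5.66% and 13.29 CPM stands alone at the lower left.

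For the other members the most similar genes differed from one member to the next. Those of Nfkbia were Ptafr, the receptor of platelet-activating factor (r = 0.72), and the chemokine genes Cxcl2 (0.72) and Cxcl10 (0.70). Rela was most like Prkaca (0.89), Relb like Ncbp1 (0.88), Nfkb1 like Srsf4 (0.78) and Nfkb2 like Tesc (0.85). Nfkbie was most like Krr1 (0.68), Nfkbiz like Rgs10 (0.80), Tnfaip3 like Cpne1 (0.87) and Bcl3 like Mpv17l2 (0.84). These are the highest of 9156 correlations each, over the same 31 libraries, which differ in depth and composition, and describe likeness only.

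The rest of the pathway was read from lists of kinases, adaptors, negative regulators, receptors, ligands and target genes. These lists were chosen with earlier results of these data known, so their counts describe the lists and are no independent test. After 3x4Gy, 10 of 39 target genes tested were higher and 2 lower, 6 of 19 ubiquitin and other negative regulators were higher and 1 lower, 4 of 15 adaptors and 3 of 17 receptors were higher, and 1 of 16 kinases was higher, beside 5.2% higher and 7.09% lower over all genes. The list medians ran from 0.04 for receptors and 0.12 for kinases to 0.40 for negative regulators and 0.58 for targets, against -0.004 over all genes. The counts depend on the settings: with the stromal and epithelial covariate 2 targets, 0 adaptors and 0 negative regulators were called, in place of 12, 4 and 7, while calls over all genes fell to 144 higher and 121 lower. Without 1 library the targets had 9 to 13 calls, the negative regulators 3 to 8 and the adaptors 2 to 5, with the lowest counts of negative regulators without 3x0Gy library 2, 3 or 4 and that of adaptors without 3x0Gy library 4. Malt1, the protease of the CARD-BCL10-MALT1 complex, averaged 114.9 ± 27.5 CPM after 3x4Gy (SD, n = 6) and 54.3 ± 6.9 CPM after 3x0Gy (n = 4; log2 fold change 1.07, SE 0.18, adjusted p = 0.00050). Cd40, a receptor of the non-canonical pathway, averaged 152.2 ± 33.7 CPM against 77.9 ± 19.3 CPM (0.96, SE 0.20, adjusted p = 0.0030). Ikbkb, the catalytic kinase that marks IkB proteins, was the called kinase (0.47, adjusted p = 0.018).

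Further called adaptors after 3x4Gy were Traf1 (0.78), Traf3, a brake on non-canonical signalling (0.54), and Ticam1, the TRIF adaptor (0.51). Called negative regulators with the largest changes were Tax1bp1 (0.66), Tnip1 (0.64), Pdlim2 (0.61) and Tnip2 (0.58), of which Tax1bp1, Tnip1 and Tnip2 encode partners of A20, while Tnfaip3 for A20 itself was not called. The receptor genes Tnfrsf4, for OX40 (1.39), and Tnfrsf1b, for the second receptor of tumour necrosis factor (0.49), rose as well, as did Nfkbil1 (1.02), an IkB-like gene. Among target genes, Ptgs2, for cyclooxygenase-2 (1.73), Clec4e, for the receptor Mincle (1.68), and Slfn2 (1.19) rose most, and Vcam1, an adhesion molecule, averaged 470.7 ± 156.8 CPM against 891.9 ± 222.4 CPM (-0.92, adjusted p = 0.028).

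After 1x20Gy at day 5, 14 of 39 target genes were higher and 1 lower, beside 3.67% higher and 4.88% lower over all genes, with a list median of 0.49 against 0.02. The 15 calls among targets became 8 without 1x0Gy library 1 or 4, 9 without 1x0Gy library 3, 8 when scaled to leukocyte genes and 4 with the stromal and epithelial covariate. Clec4e rose by 1.87 on the log2 scale, and the chemokine genes Cxcl2 (1.59), Cxcl1 (1.55) and Ccl17 (1.46) were the next largest. Receptors called were Tnfrsf4 (1.88), Tnfrsf18, for GITR (1.46), and Tnfrsf1b (0.49), and adaptors Traf1 and Birc2, for the ubiquitin ligase cIAP1 (0.56). Negative regulators called were Irak3 (0.93), Pdlim2 (0.59) and Cyld (0.44). Tnfrsf4 and Tnfrsf18 also mark regulatory T cells: the summed regulatory T cell markers were 236.9 to 702.7 CPM after 1x20Gy against 70.2 to 182.1 CPM after 1x0Gy, and 221.2 to 453.2 against 108.0 to 183.2 CPM after 3x4Gy and 3x0Gy.

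At day 13 after 1x20Gy, 3 of 35 target genes were higher and 2 lower, beside 4.22% higher and 3.83% lower over all genes, and the list median was 0.13 against 0.005. The 5 calls became 2 without 1x0Gy library 3 and 3 without 1x0Gy library 2 or 1x20Gy library 4 or 7. Ccl5 (1.31) and Junb (0.94) rose; Vcam1 (-1.35) and Bcl2a1b, a survival gene (-0.59), fell. The ligand Ltb, lymphotoxin beta, rose (1.59), Il1a fell (-1.77), and so did the receptor Tlr2 (-0.66) and the kinase Irak2 (-0.44). Socs1, a negative regulator, rose by 1.01. Traf1, an adaptor that is itself an NF-kB target, was called in all 3 comparisons, at 47.0 ± 4.1 CPM after 1x20Gy (n = 7) against 34.2 ± 3.0 CPM after 1x0Gy (n = 4) at day 13 (0.46), 135.1 ± 22.2 against 59.1 ± 14.03 CPM at day 5 (1.19), and 117.8 ± 20.2 CPM after 3x4Gy against 68.9 ± 23.7 CPM after 3x0Gy (0.78).

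Mature dendritic cells are known for high Relb, Nfkb2 and Traf1. Their 6 markers share Ccr7, Fscn1 and Ccl22 with the list of target genes, so these are counted in both. Of the 6, 3 were called higher after 3x4Gy, beside 5.2% of all genes. All 6, above 0 in every library, summed to 258.0 to 521.6 CPM after 3x4Gy against 157.5 to 275.3 CPM after 3x0Gy. They summed to 238.5 to 530.5 CPM after 1x20Gy against 174.7 to 315.6 CPM after 1x0Gy at day 5, with 1 of 6 higher, beside 3.67%, and to 95.5 to 204.1 against 100.8 to 185.9 CPM at day 13. The ranges overlapped in all 3 comparisons, and their part in the change of Relb and Nfkb2 was not tested. The 8 neutrophil markers, of which Ly6g was at 0 in every library, summed to 398.1 to 538.9 CPM after 3x4Gy against 145.6 to 328.4 CPM after 3x0Gy, and to 376.5 to 849.8 CPM after 1x20Gy against 190.7 to 316.8 CPM after 1x0Gy at day 5, with no overlap. At day 13 they summed to 293.4 to 464.4 against 230.1 to 307.2 CPM. On that day 3 of 10 macrophage and monocyte markers were lower after 1x20Gy, beside 3.83% of all genes. Of the T cell markers 4 of 7 and of the NK cell markers 4 of 5 were higher, beside 4.22% of all genes. Mast cell and basophil markers summed to 66.5 to 83.6 CPM after 1x20Gy against 24.7 to 49.5 CPM after 1x0Gy at day 5. In that comparison 3 of 4 tested were higher, beside 3.67% of all genes. Their sums overlapped after 3x4Gy and 3x0Gy. Both erythroid markers tested were lower at day 5, and summed to 4.13 to 17.8 CPM after 3x4Gy against 26.0 to 60.9 CPM after 3x0Gy and to 13.1 to 26.98 CPM after 1x20Gy against 37.5 to 81.3 CPM after 1x0Gy. Of the epithelial and tumour markers 2 of 10 were lower after 3x4Gy and 5 of 10 after 1x20Gy at day 5. Over all genes, 7.09% and 4.88% were lower in these comparisons. The epithelial and tumour markers summed to 158.4 to 533.8 CPM after 1x20Gy against 439.0 to 639.0 CPM after 1x0Gy at day 5. At day 13 they summed to 765.9 to 2223 CPM (median 1053) against 696.6 to 946.8 CPM (median 898.8). The fibroblast sums shifted the other way at day 13, so the joint covariate averages lists that moved in opposite directions. The part of these cell types in the members' changes was not tested, and covariate and scaling alternatives that rest on such markers cannot settle it.

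**Figure D5:**
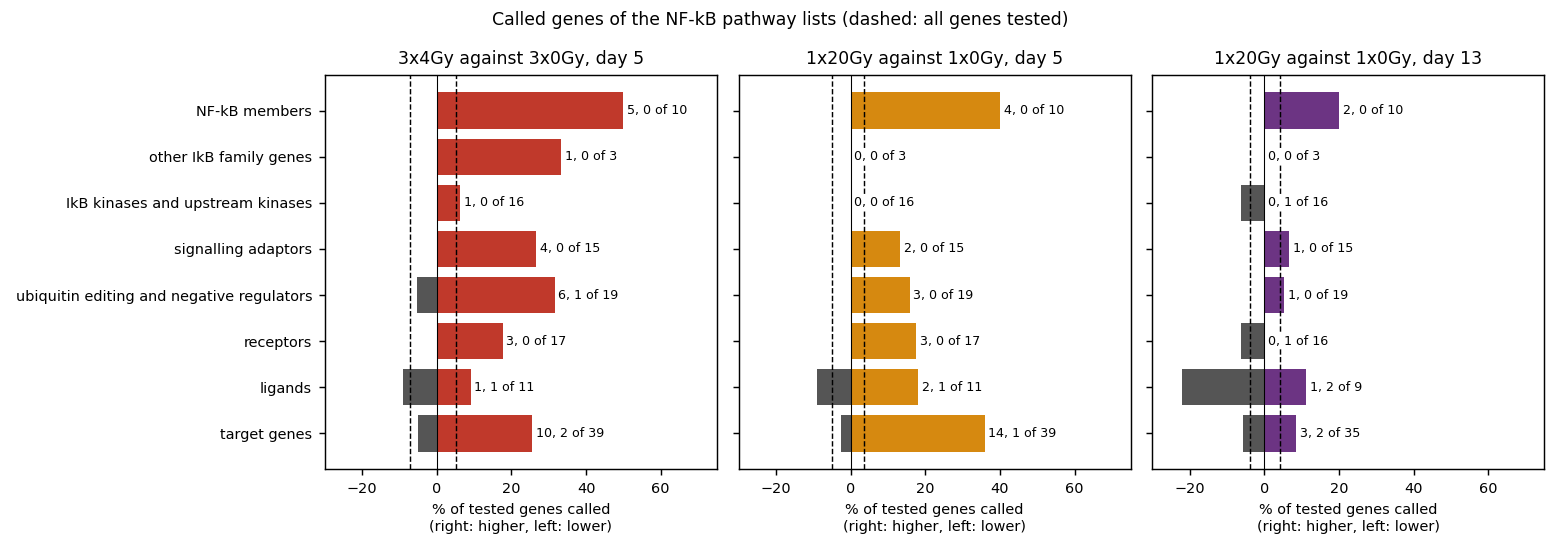
Percentage of each list's tested genes called higher (bars to the right) or lower (grey bars to the left) for 3x4Gy and 1x20Gy against their mocks, with the numbers higher, lower and tested beside each bar; dashed lines give the percentage over all genes. Of the lists drawn, the members have the longest bars to the right after 3x4Gy and 1x20Gy at day 5, 5 and 4 of 10, with TMM scaling.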

How the data were processed

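The authors deposited 1 file of raw counts per library, with 38406 gene rows and HTSeq's summary rows; the summary rows, among them reads outside genes at 5.66% to 32.0% of uniquely placed reads, were kept out of library sizes and tests. Per the submitters' processing notes the tools were bcl2fastq 2.20.0.422, cutadapt 1.5, HISAT2 2.0.4 and HTSeq 0.9.1, with the builds GRCm38 and mm10; annotation release and strand setting are not given in the sources used here. Gene positions and exon lengths come from GENCODE on GRCm38, sequences from RefSeq. Depth was 2641229 to 7541144 counts.

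Counts were tested with edgeR 4.0.16 in R 4.3.3: TMM scaling, filterByExpr (minimum count 10, minimum total 15), and a quasi-likelihood fit over the 20 libraries of day 5, the 11 of day 13 and, for the day difference, all 31. Adjusted p is Benjamini-Hochberg over all genes tested, called below 0.05; the SE is the log2 fold change over the root of F. CPM is scaled within each day's fit. Correlations used log2 CPM with a prior count of 2 and 100000 permutations. The procedure was tested on simulated data. No 2 libraries of 1 group agreed within sampling noise. Labels do not say that libraries of 1 group are separate animals, so p-values measure only the spread between these libraries. Alternatives used DESeq2 1.42.0 and limma 3.58.1; figures used matplotlib 3.10.9 in Python 3.11.15.

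Members, lists and tests were chosen with earlier results of these data known. All 10 members are described; of each pathway list the up to 4 called genes with the largest absolute change and a mean of at least 5 CPM are named per comparison. The lists hold 232 entries, of which 228 matched by symbol and 2 by an older symbol. Genes most like a member are the 3 with the highest Pearson r among those tested on both days with a mean of at least 5 CPM.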

Additional observations from a re-analysis of the deposited data

Results flagged for a closer look

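In 5 of 60 combinations of a member and a group, the highest or lowest library lay far from the rest of its group by Dixon's criterion; chance gives about 1 in 20 such groups. Rel had 13.29 CPM in 3x0Gy library 2, below 81.9 to 95.2 CPM in the other 3x0Gy libraries. Bcl3 had 188.1 CPM in the same library, above 66.6 to 78.8 CPM in the others. This is the library with 5.66% of reads outside genes. Nfkb1 had 75.21 CPM in 3x4Gy library 1, below 106.4 to 110.5 CPM in the other 5, and Nfkb2 had 88.24 CPM there, above 52.3 to 64.6 CPM in the other 5. Nfkbiz had 229.6 CPM in 1x0Gy library 1 at day 5, below 275.2 to 284.1 CPM in the others. The cause was not tested in any of these.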

How the results depend on the processing

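After 3x4Gy, 5 members were called; 3 were called at an adjusted p below 0.01, with the stromal and epithelial list covariate, with the covariate of reads outside genes, with only the 2 groups compared, and when scaled to the 4 leukocyte genes, an alternative chosen after seeing the data (1 higher, 2 lower), and 4 to 6 without 1 library; DESeq2, limma voom and the fit without the gene RP23-81C12.3 called 6. After 1x20Gy at day 5, 4 were called. The count was 2 with upper quartile scaling and without the gene RP23-81C12.3. It was 1 with no filter on low counts and with the covariate of reads outside genes. It was 0 at an adjusted p below 0.01, with the stromal covariate and when scaled to leukocyte genes. Without 1 library 0 to 4 were called, and 0 without 1x0Gy library 4. Without 1x20Gy library 3, none of the 4 reported genes passed either. DESeq2 called 5 and the fit of only the 2 groups 6. At day 13, 2 were called; 0 at an adjusted p below 0.01 and when scaled to leukocyte genes, and 0 to 2 without 1 library; 3 with the covariate of reads outside genes. The causes were not tested. Scaling to leukocyte genes moved the median of all genes by -0.59, -0.25 and -0.13 in these comparisons, by -0.33 in the regimen difference, 0.35 between mocks and 0.13 in the day difference. Over all genes it called 119 higher and 1230 lower after 1x20Gy at day 5 and 243 and 721 at day 13, where TMM called 441 and 587, and 467 and 424. Upper quartile scaling called 450 higher and 1110 lower after 3x4Gy, 317 and 745 after 1x20Gy at day 5, and 384 and 512 at day 13. At an adjusted p below 0.01, TMM called 224 and 441, 143 and 282, and 114 and 176. The stromal covariate called 144 and 121, 109 and 65, and 335 and 319.

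Of 1730 alternative log2 fold changes of members, 1553 kept direction and call, 69 lost and 15 gained a call, and 93 changed sign, among them 1 called value, that of Nfkb1 after 3x4Gy. Most of the 1730 belong to values not called as reported, which could not lose a call, so all 69 losses fall on the reported calls. Beside the fits without 1 library, 11 other settings at day 5 and 10 at day 13 used the threshold of 0.05. After 3x4Gy, Relb, Nfkb2 and Nfkbie passed in 10 of them, Rel in 8 and Nfkb1 in 6. After 1x20Gy at day 5, Relb and Nfkbie passed in 8, and Nfkb1 and Nfkb2 in 4. At day 13, Relb and Bcl3 passed in 9. After 3x4Gy, Rela was 0.0661 with limma voom, 0.0101 with the replicate block and 0.2538 with the stromal covariate, Tnfaip3 0.0735 with reads outside genes, and, scaled to leukocyte genes, Nfkb1 was -0.0455, Nfkbia -0.1416, Nfkbiz -0.3421 and Bcl3 -0.3695. After 1x20Gy at day 5, Bcl3 was -0.0203 with the stromal covariate and -0.2066 scaled to leukocyte genes, and Rel -0.1689 with reads outside genes. At day 13, Nfkbiz was -0.0354 with upper quartile scaling, -0.0114 with no filter, -0.0147 with the block, -0.0351 with the stromal covariate, -0.0246 with reads outside genes and -0.1313 scaled to leukocyte genes; Nfkbie was -0.0261 with reads outside genes and -0.0661 scaled to leukocyte genes, and Rela 0.0041 with the stromal covariate and 0.2406 with reads outside genes.

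In the regimen difference, Nfkbia was 0.0187 with no filter, 0.0074 with voom, 0.0112 with the block and 0.0022 with reads outside genes, and, scaled to leukocyte genes, Relb was -0.1387, Nfkb1 -0.2752, Nfkbie -0.1558 and Bcl3 -0.1628. Between mocks, Nfkbie was -0.0315 with no filter, -0.0025 with voom, -0.0147 with the stromal covariate, -0.0245 with reads outside genes, -0.0078 without RP23-81C12.3 and -0.0058 with only the 2 groups, and, scaled to leukocyte genes, Relb was 0.1105, Nfkb1 0.151, Nfkb2 0.1096 and Bcl3 0.2556. In the day difference, Relb was -0.0286 with the block and -0.041 with the stromal covariate, which also gave Nfkb1 0.0694, Nfkbia 0.0509 and Tnfaip3 0.2188, and Tnfaip3 was 0.0328 scaled to leukocyte genes.

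Without 1 library, values that changed sign ran from -0.1768 to 0.3004 for Rela and -0.4283 to 0.128 for Tnfaip3 after 3x4Gy, -0.0074 to 0.1189 for Bcl3 after 1x20Gy at day 5, and, at day 13, -0.1105 to 0.0968 for Rela, -0.3265 to 0.3031 for Rel, -0.0185 to 0.2145 for Nfkbie and -0.0938 to 0.1221 for Nfkbiz. They ran from -0.4366 to 0.0081 for Rela, -0.069 to 0.1262 for Nfkb1 and -0.1318 to 0.1555 for Nfkbia in the regimen difference, from -0.1255 to 0.3321 for Rela and -0.1319 to 0.0657 for Nfkbie between mocks, from -0.048 to 0.0563 for Relb between 3x4Gy and 1x20Gy, and from -0.0804 to 0.0893 for Relb and -0.2133 to 0.0362 for Tnfaip3 in the day difference.

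Replicate numbers are shared between groups, but correlations of same-numbered libraries ran from -0.35 to 0.50, so the numbers were not taken to pair libraries. With the replicate block 5, 3 and 2 members were called, and Nfkb1 after 1x20Gy at day 5 lost its call. Of 462 alternative counts of calls in the pathway lists 144 moved, which means by over 1.5 times, or to or from 0. Depth limits the members little; the lowest count was 39. The strict kappaB match was found in 6 promoters and the loose one in 7.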
